A study of Mus musculus with 6 samples.

Results

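The 9 genes described here belong to the primordial germ cells, the founders of eggs and sperm. They were chosen by name: *Prdm1*, *Prdm14* and *Tfap2c*, which encode transcription factors of germ cell specification; *Dppa3*, *Ifitm1* and *Ifitm3*, early markers of the lineage; *Nanos3* and *Dnd1*, which encode RNA-binding proteins that keep germ cells alive; and *Kit*, which encodes the receptor for stem cell factor. All 9 had at least 1 probe, with 19 probes in all among 45281 on the array, and they are 9 of 19057 genes with a probe. Each sample was the RNA of a pool of 8 whole mouse embryos matched for stage (E8.0 to E8.5), hybridised to 1 Illumina Mouse WG6 v2 array. There were 3 pools of *Zic2* iso/iso embryos and 3 of wildtype embryos, all from crosses of *Zic2* iso/+ parents and on the C3H/HeH background. The *iso* allele arose in an ENU screen, in which the mutagen makes point mutations at random, and carries a premature stop codon in the fifth zinc finger of *Zic2*. It was induced in C57BL6/J and backcrossed to C3H/HeH, and embryos of either sex were taken, with littermate controls.

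In the mouse, primordial germ cells arise from a few cells of the proximal posterior epiblast that respond to BMP signals from the extraembryonic ectoderm. At the stage sampled here they form a small cluster at the base of the allantois and begin to move into the hindgut, so that they are a minor part of the whole embryo. *Dppa3*, *Nanos3* and *Prdm14* are largely restricted to germ cells at this time, whereas *Ifitm1*, *Ifitm3*, *Kit*, *Tfap2c* and *Prdm1* are also used by other tissues.

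Values are log2 probe intensities after quantile normalisation, and differences are *Zic2* iso/iso minus wildtype. A background level of 7.47 was set at the 95th percentile of 1606 probes for beta-defensins, keratin-associated proteins and receptors of smell and pheromones, gene families not known to be used in the embryo at this stage. The brightest probe of a gene over the 6 pools stands for it. A gene above that level in at least 1 genotype is taken as readable, and for any other gene no difference is read. The mutated gene was read by a probe near this level. *Zic2* gave 7.64, 7.57 and 8.01 in the *Zic2* iso/iso samples, against 8.27, 8.06 and 8.00 in the wildtype samples (adjusted p = 0.61 from limma). Since *iso* is a point mutation, this does not check the genotype. Any pair of arrays had a Pearson's r of 0.993 to 0.995 over the probes, a description only.

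No change was detected in the primordial germ cell genes that could be read in *Zic2* iso/iso embryos. Among the 9, 5 stood above that background level (*Ifitm1*, *Ifitm3*, *Kit*, *Tfap2c* and *Dnd1*) and 4 did not (*Prdm1*, *Dppa3*, *Nanos3* and *Prdm14*). Of all 19057 genes, 56.9% reached it. The members described above as largely restricted to germ cells (*Dppa3*, *Nanos3* and *Prdm14*) were thus not readable. Of the readable ones, *Ifitm1*, *Ifitm3*, *Kit* and *Tfap2c* are also used by other tissues, so that their values are not those of germ cells alone. Which cells gave the RNA of *Dnd1* was not tested, so its value is not read as that of germ cells either. None of the 9 genes passed an adjusted p of 0.05 in limma, with adjusted p-values of 0.76 to 1.00. Over all genes 0.0945% passed, and 0.166% of those above the background level. None of the 19 probes passed either, where 0.0442% of all probes did. At an unadjusted p under 0.05 there was 1 member, *Kit*, where 7.65% of all genes and 11.2% of those above the level lie. The mutant and wildtype pools overlapped in all 9 genes, while they were apart in 10.9% of all genes and in 12.4% of those above the level. The median log2 difference was -0.02 over the 9 genes and also over the 5 readable ones. It was -0.0038 over all genes and -0.0072 over all those above the level. The study describes the replicates as independent pools of embryos, and p-values measure the spread between these pools. An exact permutation test of 3 pools against 3, two-sided, cannot give a p under 0.1. RNA of whole embryos was measured, so that fewer cells of a type and less RNA per cell cannot be told apart.

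**Figure D1:**
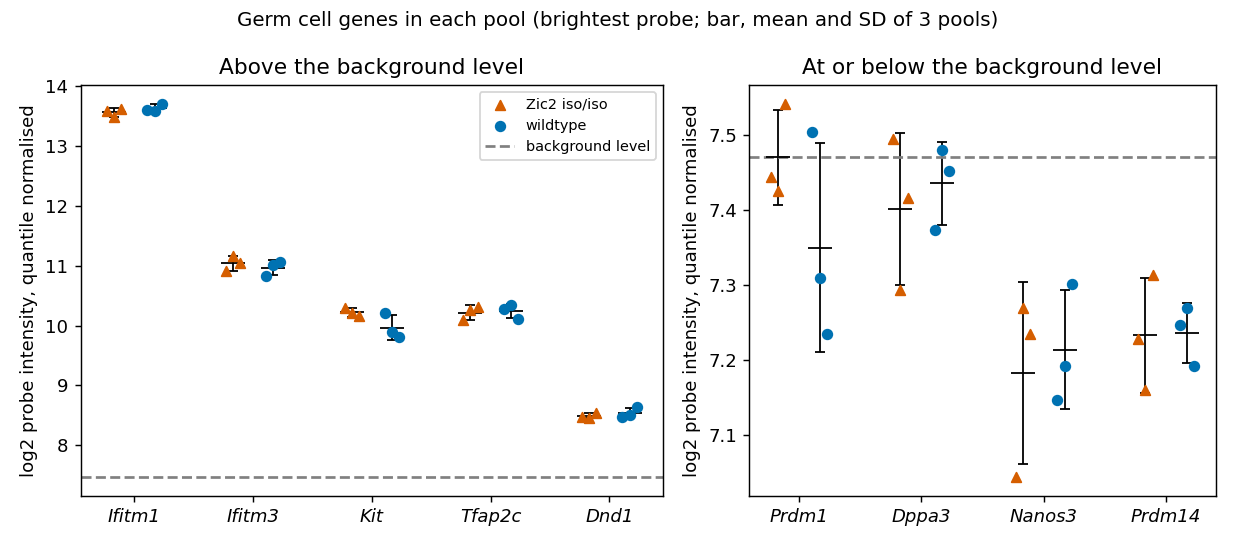
Quantile-normalised log2 probe intensity (vertical axes, of different range in each panel) of the brightest probe of each germ cell gene in the 3 pools of *Zic2* iso/iso (triangles) and the 3 of wildtype (circles) embryos. Horizontal bars are means, error bars their SD (n = 3), and a dashed line shows the background level of 7.47. The genotypes overlap in all 9 genes, and the 4 genes on the right lie around or below the line.

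Among the transcription factors of specification, only *Tfap2c* could be read. TFAP2C acts with PRDM1 and PRDM14 in the mouse to set up the germ cell programme, and it is also made in surface ectoderm and trophoblast. The log2 intensity of *Tfap2c* was 10.09, 10.25 and 10.32 in the *Zic2* iso/iso pools, against 10.28, 10.34 and 10.11 in the wildtype pools (replicates 1 to 3 of each, as throughout). The pools of the genotypes are interleaved, with the lowest value in a mutant pool and the highest in a wildtype pool. The log2 difference was -0.02 (standard error 0.08, 95% interval -0.20 to 0.15, adjusted p = 0.99 from limma). The other 2 probes of *Tfap2c* were also above the background level, at 8.84 ± 0.07 and 8.17 ± 0.20 in mutant pools and 8.87 ± 0.04 and 8.19 ± 0.01 in wildtype pools (SD, n = 3 each). Their log2 differences of -0.03 and -0.02 had standard errors of 0.07 and 0.09, so that all 3 probes of the gene gave differences smaller than their errors.

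*Prdm1*, which encodes the repressor BLIMP1 that starts the germ cell programme by silencing somatic genes, sat at the edge of what the array could read. Its brighter probe gave 7.44, 7.43 and 7.54 in *Zic2* iso/iso pools, against 7.50, 7.31 and 7.23 in wildtype pools. There was 1 pool of each genotype above the background level of 7.47, and the mutant mean of 7.4701 was just under the unrounded level of 7.4710. The second *Prdm1* probe was also below the level, at 7.15 in mutant and 7.11 in wildtype pools. *Prdm14*, which encodes the factor that restores pluripotency genes in germ cells, was below the level in every pool of both probes. Its brighter probe gave 7.23, 7.16 and 7.31 in *Zic2* iso/iso pools and 7.25, 7.27 and 7.19 in wildtype pools, and 71.4% of the background probes were dimmer.

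The 2 *Ifitm* genes of the early surface markers were read far above the background level, with no difference past the test. *Ifitm1* and *Ifitm3*, named Fragilis genes for their early use in germ cells, encode small interferon-induced transmembrane proteins, and both are also expressed in somatic tissues. They lie in one gene cluster on chromosome 7, and neither overlaps another gene in the RefSeq table. *Ifitm1* gave 13.58, 13.49 and 13.62 in *Zic2* iso/iso pools and 13.60, 13.59 and 13.71 in wildtype pools. The ranges overlap, although wildtype pool 3 was the highest and mutant pool 2 the lowest, with a log2 difference of -0.07 (standard error 0.07, 95% interval -0.22 to 0.08, adjusted p = 0.96 from limma). *Ifitm3* gave 10.91, 11.16 and 11.05 in *Zic2* iso/iso pools, against 10.82, 11.01 and 11.06 in wildtype pools. The lowest value is that of wildtype pool 1 and the highest that of mutant pool 2, with a log2 difference of 0.08 (standard error 0.08, 95% interval -0.11 to 0.26, adjusted p = 0.96).

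*Ifitm1* has 5 probes, of which 3 were above the background level and 2 below it. A second bright probe read 13.34, 13.20 and 13.07 in *Zic2* iso/iso pools and 13.18, 13.13 and 12.97 in wildtype pools. Its log2 difference of 0.11 (standard error 0.08, adjusted p = 0.94 from limma) has the opposite sign to that of the brightest probe, and neither passed the test. Another probe averaged 8.42 ± 0.10 in mutant and 8.499 ± 0.31 in wildtype pools (SD, n = 3 each), where wildtype pool 3 was the highest at 8.85. The direction of *Ifitm1* is thus not given by these probes.

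The promoters of *Ifitm1* and *Ifitm3* are shown because both genes were read well and lie in one cluster, as the 250 bases before a transcript start that RefSeq lists for the gene (GRCm38.p6), 5′ to 3′. For *Ifitm3* this start is the outer end of the gene, whereas for *Ifitm1* it lies inside the span that RefSeq gives the gene, so that the window shown is not the one before its outermost start. Capitals mark a GC box, the letters GGGCGG on either strand, which factors of the SP family can bind. That of *Ifitm1* is at chr7:140967826-140968075 on the plus strand and that of *Ifitm3* at chr7:141010745-141010994 on the minus strand.
Ifitm1: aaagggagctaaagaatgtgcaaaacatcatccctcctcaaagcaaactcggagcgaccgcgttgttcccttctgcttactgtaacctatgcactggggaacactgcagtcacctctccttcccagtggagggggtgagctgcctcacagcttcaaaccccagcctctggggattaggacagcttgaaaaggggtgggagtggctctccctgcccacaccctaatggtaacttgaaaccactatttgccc
Ifitm3: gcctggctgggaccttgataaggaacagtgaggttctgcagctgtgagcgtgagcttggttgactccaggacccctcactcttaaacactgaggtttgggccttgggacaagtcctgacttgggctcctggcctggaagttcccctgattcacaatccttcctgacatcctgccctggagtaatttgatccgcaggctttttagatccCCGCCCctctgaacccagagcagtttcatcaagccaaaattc

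*Dppa3*, also known as Stella, encodes a protein that protects the genome of germ cells and the early embryo from changes in DNA methylation, and it marks the germ cells at this stage. Its single probe gave 7.49, 7.29 and 7.42 in *Zic2* iso/iso pools and 7.37, 7.48 and 7.45 in wildtype pools. There was 1 pool of each genotype above the background level, both means (7.40 in mutant and 7.44 in wildtype pools) were below it, and 92.6% of the background probes were dimmer. No fold is given for it.

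Of the RNA-binding proteins, *Dnd1* could be read and *Nanos3* could not. DND1 protects germ cell transcripts from microRNAs, and loss of it in the mouse Ter mutant depletes the germ cells. *Dnd1* gave 8.48, 8.46 and 8.54 in *Zic2* iso/iso pools, against 8.48, 8.5 and 8.64 in wildtype pools. The values of mutant and wildtype pools interleave except for wildtype pool 3, which is the highest, and the log2 difference was -0.04 (standard error 0.07, 95% interval -0.19 to 0.10, adjusted p = 0.98 from limma). The gene overlaps *Wdr55* in the RefSeq table, and the part of it that the probe reads is not given in the sources used here. NANOS3 represses the translation of transcripts that would drive germ cells to die or differentiate. *Nanos3* gave 7.04, 7.27 and 7.23 in *Zic2* iso/iso pools and 7.15, 7.19 and 7.30 in wildtype pools, below the level in all 6, with 57.9% of the background probes dimmer.

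*Kit* had the largest difference of the readable members. The receptor KIT is needed for the survival and movement of germ cells, and it is also used by blood progenitors and by neural crest cells of the pigment lineage. *Kit* gave 10.30, 10.21 and 10.15 in *Zic2* iso/iso pools and 10.21, 9.89 and 9.80 in wildtype pools. Wildtype pool 1 lay among the mutant pools, while the other 2 wildtype pools were below all of them. The log2 difference was 0.25 (standard error 0.10, 95% interval 0.04 to 0.46), a 1.19-fold difference in intensity. The test was not passed, with an adjusted p of 0.76 and an unadjusted p of 0.021 from limma, and an exact two-sided permutation p of 0.3. Of the genes above the background level, 3.61% had a difference at least as large in either direction. The interval is for this gene alone and is not adjusted for the number of genes. The other 2 probes of *Kit*, annotated to other cDNA records, were below the background level in every pool and add nothing to it.

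Markers of other tissues that use *Kit* had the following values beside it, and their part in the difference was not tested. Of 7 primitive blood genes 6 were measured and 5 were above the background level, with *Gata1* below it. Their summed intensity ran from 1414 to 9908 in *Zic2* iso/iso pools and from 4466 to 6410 in wildtype pools, the widest spread of these lists. *Hbb-bh1*, an embryonic globin gene, gave 12.87, 10.75 and 9.04 in the *Zic2* iso/iso pools and 11.55, 11.74 and 12.17 in the wildtype pools. The mutant pools rank for this gene as they do for *Kit*, and the wildtype pools rank the other way round. Of 6 endothelial genes 5 were above the level, with *Tie1* below it, and their sum ran from 2324 to 2453 in mutant and from 2147 to 2369 in wildtype pools. Of 5 neural crest genes 4 were above the level, with *Foxd3* below it, and their sum ran from 1661 to 1915 in mutant and from 1969 to 2170 in wildtype pools. The log2 differences were -0.66 for *Sox10* and -0.36 for *Ets1*, but 0.05 for *Snai1* and -0.03 for *Tfap2b*. Whether cells of the pigment lineage were present at this stage was not tested.

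The *Kit* promoter is shown because that gene had the largest difference, and it differs in base composition from those of the *Ifitm* pair. It is the 250 bases before the first of 2 RefSeq starts, at chr5:75574737-75574986 on the plus strand (GRCm38.p6), with a GC box in capitals.
Kit: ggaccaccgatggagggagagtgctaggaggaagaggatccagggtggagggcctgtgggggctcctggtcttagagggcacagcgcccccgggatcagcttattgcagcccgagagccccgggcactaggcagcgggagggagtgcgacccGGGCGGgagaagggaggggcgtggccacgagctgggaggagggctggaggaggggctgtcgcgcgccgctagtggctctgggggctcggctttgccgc
It has 17 CpG and 70.8% G and C. The promoters of *Ifitm1* and *Ifitm3* have 4 and 3 CpG, both at 53.6% G and C, where the median of all 32851 promoters is 6 CpG and 52.4%. Promoters of 5 members were in the table used, and those of *Prdm1* (15 CpG) and *Nanos3* (3 CpG) complete them. The *Prdm1* window also lies inside the gene's span, before an internal start. Not matched were *Dppa3*, *Prdm14*, *Dnd1* and *Tfap2c*.

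Of 5 motifs searched, 1 was found in these promoters. GGGCGG was in 3 of them (*Kit*, *Ifitm3* and *Nanos3*) and in 32.7% of all promoters. The core CCTGCTG of the ZIC motif was found in none of the 5 and in 8.44% of all, the TATA box TATAAA in none and in 12.4%, the interferon response element (GAAA repeated after any 2 bases) in none and in 2.98%, and the octamer ATGCAAAT of OCT4 in none and in 1.6%. Both strands were searched, no matches of different motifs overlapped in the 5 promoters, and a missing match says only that these letters are not in this window. The ZIC2 sites that the study gives in an enhancer of *Nodal* do not hold CCTGCTG on either strand. Sites of that kind would be missed by this search, and whether the promoters hold them was not tested.

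**Figure D2:**
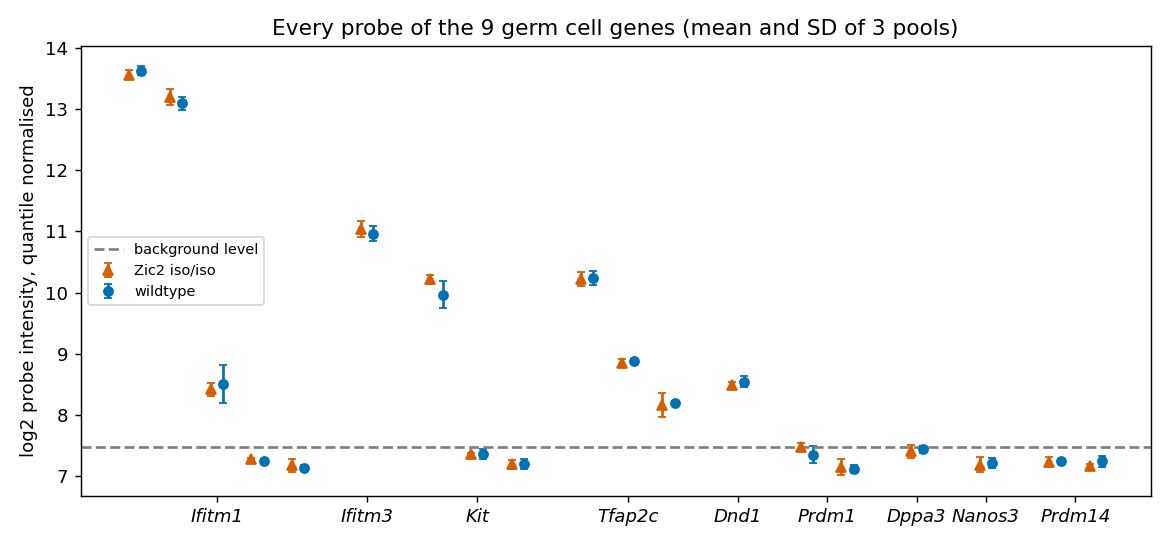
Mean log2 probe intensity (vertical axis) of each of the 19 probes of the 9 germ cell genes in *Zic2* iso/iso (triangles) and wildtype (circles) pools, from the brightest to the dimmest probe of a gene, with the SD of 3 pools as error bars and the background level of 7.47 as a dashed line. Of the 19 probes 9 lie above the line and 10 do not, and the levels of different probes are not comparable with each other.

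The 95% intervals of the 5 readable members show how large a difference these 6 arrays leave possible in the intensity. They ran from -0.22 (*Ifitm1*) to 0.46 (*Kit*) on the log2 scale, or from 0.86-fold to 1.38-fold, and all 5 lay within 1.5-fold in either direction. Their width depends on the setting. With the intensity trend the standard errors of all 5 were larger, at 0.108 in place of 0.081 for *Tfap2c*. That of *Kit* was 0.096 here, 0.114 with the trend and 0.076 with the replicate block. Without normalization between arrays it was 0.153, at a difference of 0.34. The SD among pools of a genotype was 0.04 to 0.22. The intervals of *Ifitm1*, *Ifitm3*, *Dnd1* and *Tfap2c* include 0, and no direction is read for them. The background was not subtracted, so that folds of genes near the background level such as *Dnd1* understate those of the transcript. After background correction with normexp the interval of *Dnd1* was 0.82-fold to 1.14-fold and that of *Kit* 1.00-fold to 1.45-fold. A p above the threshold does not show that the genotypes are alike, and for the 4 members below the background level these data give no interval.

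**Figure D3:**
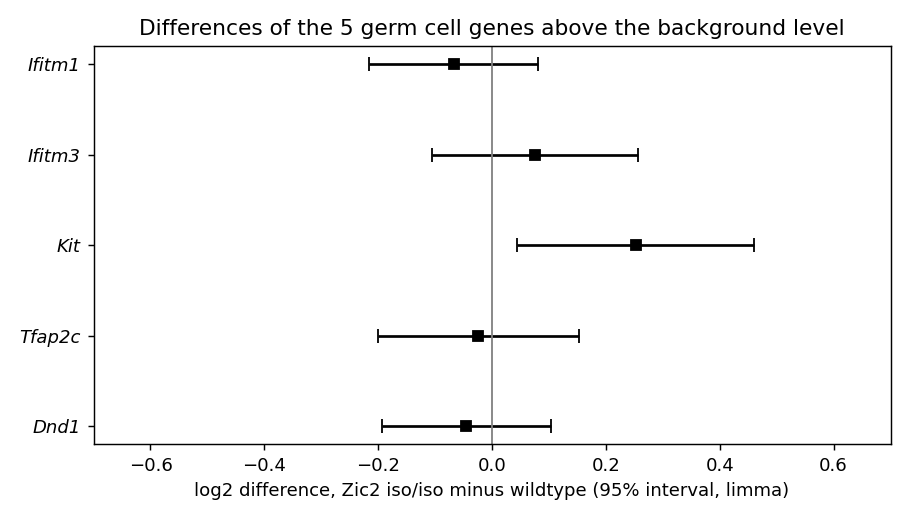
Log2 difference in probe intensity between *Zic2* iso/iso and wildtype pools (horizontal axis) of the 5 germ cell genes above the background level, with 95% intervals from limma, not adjusted for the number of genes. The intervals of 4 genes span 0, and that of *Kit* runs from 0.04 to 0.46.

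Other genes of the pathway are described by lists, without a set test. None of their genes passed an adjusted p of 0.05, and their medians are read beside the median of -0.0038 over all genes. A median over all measured genes of a list includes genes below the background level, for which no difference is read singly. Of 10 genes for the signals that induce germ cells, 9 were measured and 6 were above the background level. The median log2 difference was 0.03 over the 9 and 0.08 over the 6. *Smad5*, which encodes a transducer of BMP signals that mouse germ cells need to form, had the largest difference among those readable. It gave 9.56, 9.45 and 9.72 in *Zic2* iso/iso pools and 9.63, 9.34 and 9.14 in wildtype pools, with overlapping genotypes (log2 difference 0.21, standard error 0.11, adjusted p = 0.89 from limma). The difference was 0.089 without wildtype pool 3 and 0.34 without wildtype pool 1.

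All 10 genes for partners of germ cells and their guidance were readable, with a median log2 difference of 0.07. *Cxcl12*, which encodes the chemokine that draws germ cells towards the gonad, gave 11.65, 11.65 and 11.60 in *Zic2* iso/iso pools and 11.40, 11.14 and 11.17 in wildtype pools. Every mutant pool was above every wildtype pool, with a log2 difference of 0.40 (standard error 0.08) that stayed above the threshold at an adjusted p of 0.16 from limma, and at 0.048 without wildtype pool 1 it was below it. With the mean of all probes of the gene the difference was 0.20 (adjusted p = 0.65). Its receptor gene *Cxcr4* had a log2 difference of -0.20 (standard error 0.09, adjusted p = 0.83). *Kitl*, which encodes the ligand of KIT, had a log2 difference of 0.11 (standard error 0.10, adjusted p = 0.95). *Alpl*, the alkaline phosphatase gene by which germ cells are classically stained, gave 8.82, 8.61 and 9.03 in *Zic2* iso/iso pools and 8.54, 8.62 and 8.74 in wildtype pools, with overlapping genotypes (log2 difference 0.18, standard error 0.10, adjusted p = 0.89).

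Of 8 genes for pluripotency factors that germ cells keep, 6 were above the background level, with differences of 0.01 to 0.56 and a median over all 8 of 0.10. *Nanog*, a homeobox gene of that group, had the largest. Its mutant pools stood at 8.53, 8.38 and 8.13, and its wildtype pools at 7.85, 7.83 and 7.68. The genotypes do not overlap, and limma gave a log2 difference of 0.56 with a standard error of 0.09 (adjusted p = 0.084). It passed without *Zic2* iso/iso pool 3 (adjusted p = 0.020), with normexp and with the replicate block. It also passed with the intensity trend (adjusted p = 0.017) and with a rewritten form of the study's variance stabilising normalisation (adjusted p = 0.022). The study itself, with its own normalisation, names *Nanog* among the genes it found upregulated on these arrays. With the mean of all its probes the difference was 0.35 (adjusted p = 0.19). *Pou5f1*, which encodes OCT4, stood at 10.18, 10.11 and 10.34 in mutant pools and at 9.90, 9.92 and 9.69 in wildtype pools. These do not overlap either, with a log2 difference of 0.37 (standard error 0.08) and an adjusted p of 0.28. *Nanog* and *Pou5f1* are also used by the epiblast of the embryo at earlier stages, and whether their RNA came from germ cells was not tested.

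Of 9 genes used later in germ cells, as they settle in the gonad and enter meiosis, 6 were below the background level. *Ddx4*, the vasa RNA helicase gene, had the largest difference of the other 3, at 7.54 ± 0.06 in *Zic2* iso/iso and 7.47 ± 0.02 in wildtype pools (SD, n = 3 each; adjusted p = 0.96 from limma), hardly above the level of 7.47. The list's median log2 difference was -0.0044 over all 9 genes and 0.02 over the 3 readable ones. Of 12 genes that share a family name with the members, 11 were measured and 8 were readable. The median log2 difference was -0.0069 over the 11 and -0.0050 over the 8. *Dppa5a*, a gene of pluripotent cells that shares only its name with *Dppa3*, had the largest difference, at 8.41 ± 0.14 in mutant and 8.18 ± 0.03 in wildtype pools (SD, n = 3 each; log2 difference 0.23, adjusted p = 0.70). *Ifitm2*, which lies in the cluster of *Ifitm1* and *Ifitm3*, was at 0.08 (standard error 0.08).

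**Figure D4:**
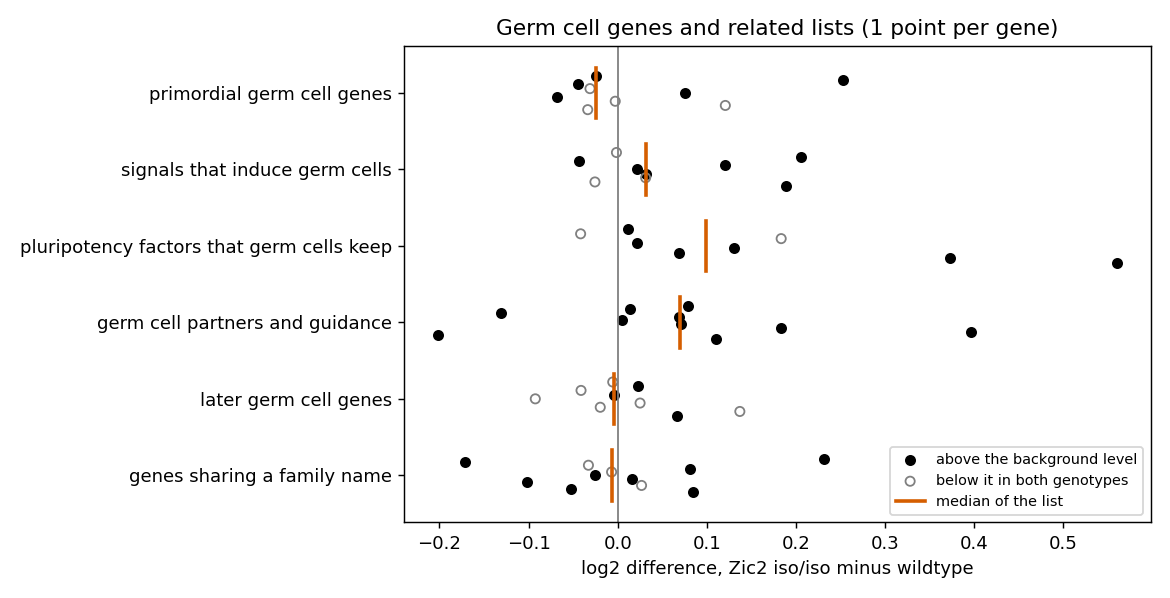
Log2 difference between *Zic2* iso/iso and wildtype pools (horizontal axis) of each measured gene in 6 lists. Filled points are genes above the background level, open points genes below it in both genotypes, and orange bars the medians over all measured genes of a list. The median of the germ cell genes is -0.02, and no point passed the test.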

How the data were processed

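RNA from 6 pools of 8 whole embryos (3 *Zic2* iso/iso, 3 wildtype) was measured on 1 Illumina Mouse WG6 v2 array each. The authors deposited intensities on a linear scale, with a lowest value of 104 to 122 and a median of 154 to 187 per array, so that they hold neither background subtraction nor the variance stabilising normalisation that the methods name. The log2 of each value (with a floor of 1) was taken and quantile normalisation applied. All 45281 probes were fitted with limma 3.58.1 in R 4.3.3 (lmFit, eBayes) for *Zic2* iso/iso minus wildtype with no covariates, with Benjamini-Hochberg adjustment over all probes and a threshold of 0.05. Exact permutation tests used scipy 1.17.1. The steps were tested on simulated data.

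Probe names came from the array's annotation (34885 probes with 1 symbol, 18 with several and 10378 with none), updated through a RefSeq table of GRCm38.p6. Of 92 genes on the lists, 86 had a probe. The members and lists were chosen with earlier results of these data known. Named were all members and *Zic2*. On each list the readable gene with the largest difference was named, and for other cell types also the brightest. The genes nearest in pattern to *Kit* were named too. *Kitl*, *Alpl*, *Cxcr4*, *Ifitm2*, *Pou5f1*, *Hba-x*, *Hbb-y*, *Tal1*, *Klf1*, *Snai1*, *Tfap2b* and markers below the background level were named after their values were seen. The alternatives were no normalization between arrays, median centring, a rewritten variance stabilising normalisation, normexp (offset 50), a filter on dim probes, an intensity trend, a robust prior, array weights, the replicate block, leaving out each pool, the mean of a gene's probes, other background levels and a threshold of 0.10. With 3 arrays per genotype, their number limits the precision.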

Additional observations from a re-analysis of the deposited data

How the results depend on the processing

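No member passed the threshold in any of 17 alternative settings. Without normalization between arrays the log2 differences of *Ifitm1*, *Dnd1* and *Tfap2c* turned to 0.021, 0.044 and 0.064, where the median of all probes also moved up, to 0.052, with median centring that of *Tfap2c* to 0.015, and with the mean of all probes that of *Ifitm1* to 0.0044. Leaving out each pool in turn gave -0.077 to 0.0061 for *Dnd1*, -0.088 to 0.043 for *Tfap2c*, -0.076 to 0.23 for *Prl2c2*, 0.089 to 0.34 for *Smad5* and 0.17 to 0.38 for *Kit*. The mean of all probes of a gene gave smaller differences for *Cxcl12* (0.20), *Nanog* (0.35), *Smad5* (0.081), *Flt1* (0.11), *Ets1* (-0.068), *Ahnak* (0.13), *Hbb-bh1* (-0.41), *Ddx4* (0.025) and *Zic2* (-0.12). This mean takes in any probe below the background level, and of the 3 probes of *Kit* only 1 was above it. A smaller value in this setting thus need not mean a smaller change in the transcript. *Kit* was higher in all 16 settings that gave a value (0.081 with the mean of all its probes), with an adjusted p of 0.16 to 1.00. Among these, the filter on dim probes, the intensity trend, the robust prior and the replicate block cannot change a difference of means, and left it at 0.25. Of the members, 5 or 6 were above the background level in the settings tried (the sixth was *Prdm1*), and 7 with the level at the 90th percentile, which adds *Dppa3*. On the related lists 1 gene, *Nanog*, passed with the rewritten variance stabilising normalisation, normexp, the intensity trend, the replicate block or a threshold of 0.10, and leaving out each pool gave 0 to 1 (*Nanog* without *Zic2* iso/iso replicate 3 and *Cxcl12* without wildtype replicate 1). Among other named genes, *Apob* passed without *Zic2* iso/iso replicate 2 (adjusted p = 0.015) and *Sox10* without wildtype replicate 2 (adjusted p = 0.038). Same-numbered pools did not deviate together (Pearson's r across probes of -0.12, -0.02 and -0.12), and no pool correlated best with its own number. Deviations around the mean of so few pools cannot show whether same-numbered pools shared a litter or a day, and this is not known. With the replicate block 17 probes passed in place of 20, and *Kit* stayed at 0.25 (adjusted p = 0.71). Over all probes 4 passed without normalization, 11 with median centring and 31 with the intensity trend. With the mean of a gene's probes 13 of 29453 features passed. The dimness of 4 members limits what could be read.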

Other observations

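Lists of other tissues in the embryo gave these values. All 6 visceral endoderm genes were above the background level, with a median log2 difference of 0.17 and none past the test. *Apob*, an apolipoprotein gene of the yolk sac, gave 11.32, 10.91 and 11.26 in *Zic2* iso/iso pools and 10.64, 10.66 and 10.69 in wildtype pools, with no overlap (log2 difference 0.50, standard error 0.09, adjusted p = 0.15 from limma). *Ttr*, the brightest of them, was at 13.66 ± 0.25 in mutant and 13.51 ± 0.26 in wildtype pools (SD, n = 3 each). Of the 5 genes for the allantois and extraembryonic mesoderm, beside which germ cells lie, all were readable. Their summed intensity ran from 4534 to 4599 in *Zic2* iso/iso pools and from 3464 to 4222 in wildtype pools, and most of it came from *Ahnak*, a widely used scaffold gene at 11.66 ± 0.08 in mutant and 11.25 ± 0.33 in wildtype pools (SD, n = 3 each; adjusted p = 0.66). *Flt1*, a VEGF receptor gene of endothelium, had a log2 difference of 0.28 (standard error 0.07, adjusted p = 0.50).

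In the neural crest list *Sox10* stood at 7.68 ± 0.24 in mutant and 8.34 ± 0.38 in wildtype pools (SD, n = 3 each), with an adjusted p of 0.39 from limma. *Ets1* stood at 9.38 ± 0.05 in mutant and 9.74 ± 0.04 in wildtype pools (SD, n = 3 each), with an adjusted p of 0.13. Of 3 measured trophoblast genes *Prl2c2* alone was readable, at 11.12 ± 0.22 in mutant and 11.08 ± 0.33 in wildtype pools (SD, n = 3 each), while *Elf5* and *Tpbpa* were below the background level. The genes whose values over the 6 pools were nearest to those of *Kit*, by the root mean square difference of centred log2 values among 10844 readable genes, were the histone gene *H2bc21* (0.02), *Vps13a* (0.04) and *N4bp2* (0.04). Their log2 differences were 0.24, 0.26 and 0.28, none past the test.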
